A study of Mus musculus with 10 samples.

Results

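The 38 genes described here are interferon-stimulated genes and sensors of foreign or misplaced nucleic acids, taken as a named list of mouse gene symbols and found by symbol among the 56750 features of the deposited count table. All 38 were found, and all 38 passed the filter on low counts, 37 of them with enough counts for it in each of the 3 dFLEx CDS tumors. The rule used no measured value, though the list was drawn up with earlier results of these data known.

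RNA-seq had been made from 2 kinds of mouse sarcoma. The dFLEx CDS tumors (tumors 170019, 170024 and 170025) were from dFLEx CDS +/- mice, which carry HA-tagged CIC::DUX4 at Rosa26 under the ubiquitous CAG promoter, silent until both Cre and FLPE have acted. Naked plasmids for these recombinases, both driven by CAG, were electroporated into the gastrocnemius, a hind limb muscle, of young adult mice. The KP tumors (tumors 3800 and 3802) were from mice of the KP genotype, which includes floxed p53, and how these were induced was not given in the sources used here. Both sexes were included in the study's animal work, and the age and sex of single animals were not used here. CIC::DUX4 fuses the repressor CIC to the activating end of DUX4, and the known targets of this fusion were checked first: the summed level of 6 of them (Etv1, Etv4, Etv5, Shc4, Spred3 and Vgf, the last making up most of it) was 41071 to 51323 counts-per-million units (CPM, counts scaled to library size) in the dFLEx CDS tumors and 303 to 313 CPM in the KP tumors. Each RNA had been split into 2 libraries, so the libraries of a tumor were summed and the tumor was the unit of replication (n = 3 and n = 2). The second library of tumor 3802 was not analysed here, which leaves 9 libraries of 20503474 to 46302223 counts and makes 3802 the shallowest tumor. It also stood apart in another way: olfactory and vomeronasal receptor genes gave 0.128 CPM per kilobase in 3802 and 0.00269 to 0.0203 in the other 4 tumors. These counts were taken as background in an alternative fit, and whether they are background was not tested.

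Cells sense viral or misplaced RNA and DNA through receptors such as MDA5 (Ifih1), TLR3 and cGAS, whose adaptors switch on interferon genes. Secreted type I interferon binds IFNAR1 and IFNAR2, and the kinases JAK1 and TYK2 then activate a complex that includes STAT2 and IRF9 and binds the interferon-stimulated response element (ISRE), while interferon gamma acts through the GAS element. The induced genes block viral replication, tag proteins with ISG15, cut RNA or amplify the response. The same genes are used by tumor cells and by infiltrating immune cells, and in bulk tissue fewer cells of a type and less RNA per cell cannot be told apart.

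The promoters of 29 of the 38 genes were in the RefSeq promoter table (300 bases, 250 before the start and 50 after it, read from GRCm38.p6); the other 9 were Oas2, Iigp1, Parp14, Zbp1, Mx1, Dhx58, Sting1, Usp18 and Mx2. The ISRE core, searched on both strands as a pair of GAAA blocks with 2 bases of any kind between them (a pair of TTTC blocks on the other strand), was in the promoters of 15 of the 29 genes (51.7%) and of 3.99% of all 27025 genes in the table. The GAS element TTCNNNGAA, which reads alike on both strands, was in 9 of the 29 (31%) and in 9.55% of all. A match describes letters only, and overlapping matches were counted as found. Stretches of 60 bases before the start are shown for 5 genes, 1 from each role with a match that lies outside the annotated gene (of those, the gene with the lowest log2 fold change), to show how these elements are spaced, and for the GAS element of Irf1. Capitals mark the bases that match the element named for each stretch, read 5′ to 3′ on the strand of the gene. Positions are on GRCm39 from an exact match of the whole promoter. A GAS match in the Igtp stretch, just before its capitals, is left in lower case.
Isg15 (chr4:156285313-156285372, minus strand), 3 overlapping ISRE cores: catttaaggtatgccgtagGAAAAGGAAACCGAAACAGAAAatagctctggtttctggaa
Ifit1 (chr19:34618169-34618228, plus strand), 2 ISRE cores: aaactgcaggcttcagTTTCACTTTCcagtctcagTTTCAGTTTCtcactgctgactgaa
Oas3 (chr5:120915765-120915824, minus strand), 1 ISRE core: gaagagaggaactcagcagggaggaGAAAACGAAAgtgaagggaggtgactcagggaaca
Stat2 (chr10:128106120-128106179, plus strand), 1 ISRE core: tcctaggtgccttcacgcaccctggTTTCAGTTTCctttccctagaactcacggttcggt
Igtp (chr11:58090322-58090381, plus strand), 1 ISRE core: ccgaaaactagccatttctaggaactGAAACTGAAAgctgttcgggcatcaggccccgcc
Irf1 (chr11:53660725-53660784, plus strand), 1 GAS element: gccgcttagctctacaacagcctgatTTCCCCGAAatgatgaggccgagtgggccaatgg

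The dFLEx CDS tumors had less RNA than the KP tumors from nearly all of these genes. The log2 fold change, dFLEx CDS against KP, was below 0 for 37 of the 38 genes, where 56.3% of the 24743 genes tested were below 0. Its median was -2.05 over the list and -0.18 over all genes tested, and the KP mean was at least 2 times the dFLEx CDS mean for 32 genes and at least 4 times for 20. Every dFLEx CDS tumor was below every KP tumor for 29 of the 38, against 11.7% of all genes tested, and for none of the 38 was every dFLEx CDS tumor above every KP tumor, against 13.7% of all genes.

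No gene of the list passed the threshold in edgeR's quasi-likelihood test with Benjamini-Hochberg adjustment over all genes, which called 45 genes in all. The smallest adjusted p was 0.092 (Xaf1), and 0.0808% of all genes were called lower. At an unadjusted p under 0.05, 27 of the 38 were lower and none was higher, against 4.93% lower among all genes. DESeq2 on the same tumor sums called 18 of the 38 lower (3.31% of the genes it tested), and edgeR on the 9 libraries as separate samples, which treats 2 libraries of 1 RNA as replicates, called 29 lower (8.88%). The number of calls thus ran from 0 to 29 by tool and by unit of replication, and every call was in the same direction. Nothing in the labels says that tumors of a group came from separate litters or batches, so p-values measure the spread between these tumors alone.

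**Figure D1:**
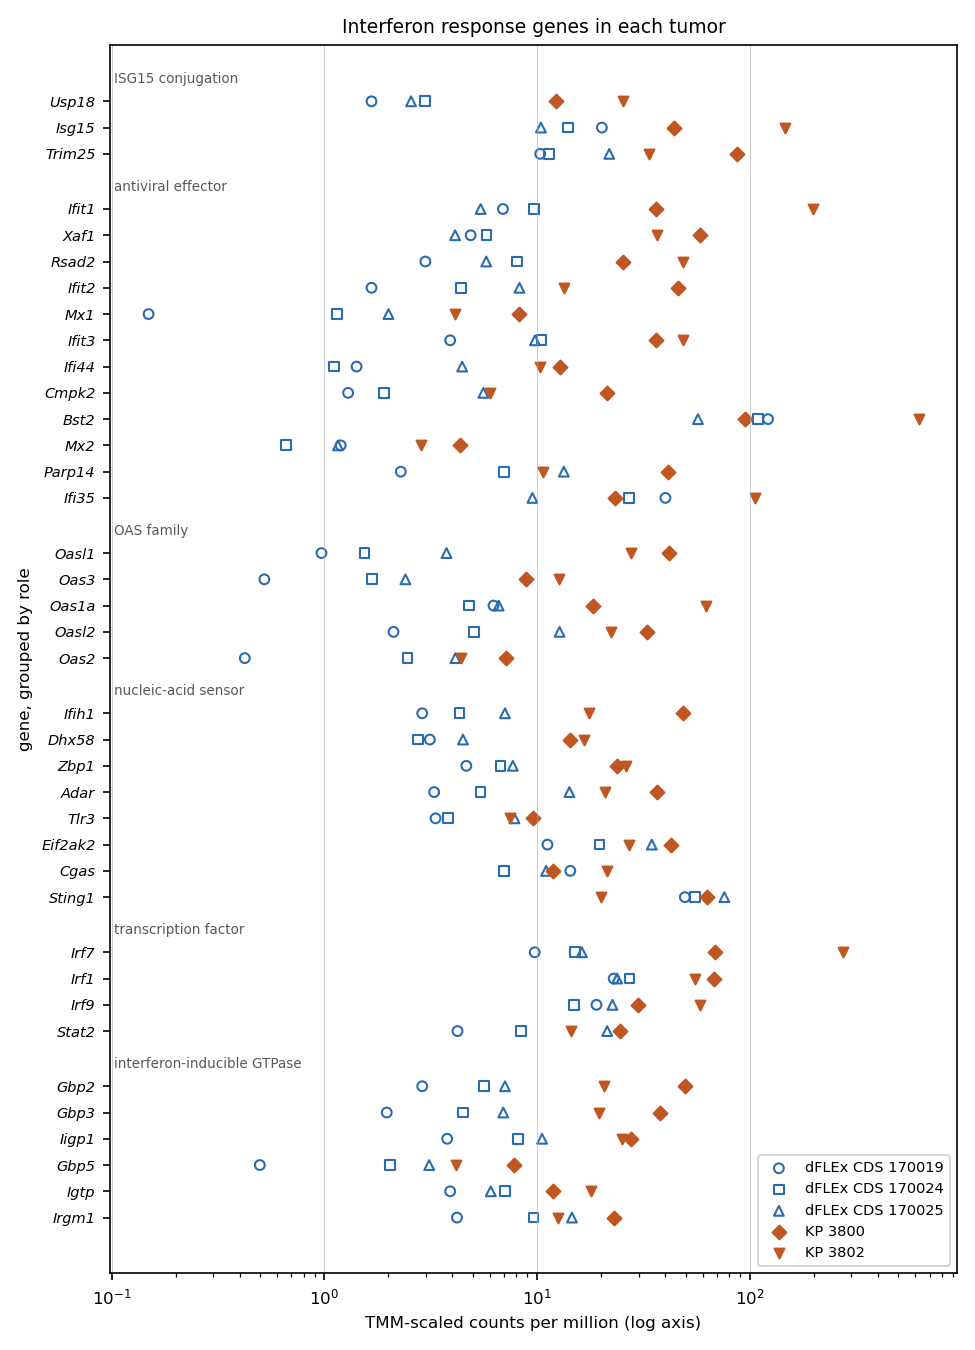
Level of each interferon response gene in each tumor, in TMM-scaled CPM on a log axis, with genes grouped by role and sorted by log2 fold change. Open blue symbols are the 3 dFLEx CDS tumors and filled orange symbols the 2 KP tumors. For 29 of the 38 genes all open symbols lie to the left of both filled ones.

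ISG15 is a ubiquitin-like protein that interferon-treated cells attach to other proteins and also secrete. Isg15 (chr4:156283912-156285253, GRCm39) was at 20.2, 13.96 and 10.4 CPM in the dFLEx CDS tumors and 43.9 and 146 CPM in the KP tumors, with tumors always given in the order 170019, 170024, 170025 and 3800, 3802. The groups did not overlap, at 14.9 ± 4.93 CPM (SD, n = 3) in dFLEx CDS and 95.1 ± 72.3 CPM (SD, n = 2) in KP tumors (log2 fold change -2.68 ± 0.69, SE, edgeR adjusted p = 0.194). The protease USP18 removes ISG15 and dampens signalling at the receptor, and Usp18 was at 1.67, 2.97 and 2.56 against 12.3 and 25.3 CPM (log2 fold change -2.97 ± 0.65, edgeR adjusted p = 0.129). TRIM25, the ubiquitin ligase that activates RIG-I and is itself an ISG15 ligase, had transcripts at 10.3, 11.4 and 21.9 against 87.00 and 33.6 CPM (log2 fold change -2.05 ± 0.67). All 3 genes were lower in every dFLEx CDS tumor, against 11.7% of all genes tested. The KP tumors differed in order: 3802 was the higher for Isg15 and Usp18, and 3800 for Trim25. The ISG15 activating enzyme Uba7 (13.7, 9.87 and 12.5 against 9.94 and 11.01 CPM) and the conjugating enzyme Ube2l6 (160.0, 47.8 and 45.99 against 26.7 and 95.3 CPM) did not share this pattern, and both overlapped between groups.

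The 12 antiviral effectors had a median log2 fold change of -2.35, from -4.00 to -1.33, and 9 did not overlap between groups. Those 9 were lower in every dFLEx CDS tumor, against 11.7% of all genes tested. The IFIT proteins bind viral RNA ends or block translation. Ifit1 (chr19:34618271-34627409) was at 6.92, 9.64 and 5.43 CPM in the dFLEx CDS tumors and 36.4 and 198 CPM in the KP tumors (log2 fold change -4.00 ± 0.81, edgeR adjusted p = 0.114). The KP mean of 117 ± 115 CPM (SD, n = 2) was 16.0 times the dFLEx CDS mean, and its SD shows how far the KP tumors were apart. Ifit2 was at 1.67, 4.404 and 8.26 against 45.7 and 13.4 CPM, with 3800 the higher KP tumor. Ifit3 was at 3.91, 10.5 and 9.77 against 36.3 and 48.4 CPM, and 19.0% of the 100-base stretches of its transcripts are also in Ifit3b, which was itself at 0.92, 3.28 and 2.07 against 11.2 and 15.7 CPM; how reads were shared between these paralogs is uncertain.

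MX1 and MX2 are GTPases that trap viral nucleocapsids. Mx1 was at 0.149, 1.14 and 2.003 against 8.25 and 4.104 CPM, lowest in 170019, where only 6 counts were found. Mx2 was at 1.19, 0.659 and 1.16 against 4.34 and 2.84 CPM, and both genes were separated between groups, though at low levels. RSAD2 (viperin) makes a chain-terminating nucleotide together with its neighbour CMPK2. Rsad2 was at 2.99, 8.03 and 5.77 against 25.4 and 48.8 CPM (log2 fold change -2.73 ± 0.67), and Cmpk2 at 1.29, 1.91 and 5.59 against 21.3 and 6.01 CPM (log2 fold change -2.22 ± 0.86). These neighbours on chromosome 12 were both separated, but the gap was wide for Rsad2 and narrow for Cmpk2, whose lower KP tumor (3802) stood at 1.08 times the highest dFLEx CDS tumor.

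XAF1, a proapoptotic antagonist of XIAP, had the smallest adjusted p of the list. Xaf1 (chr11:72192455-72204559) was at 4.88, 5.79 and 4.12 CPM in the dFLEx CDS tumors and 58.5 and 36.8 CPM in the KP tumors (log2 fold change -3.27 ± 0.59, edgeR adjusted p = 0.092, 3 of 3 dFLEx CDS tumors below both KP tumors). The group levels were 4.93 ± 0.837 CPM (SD, n = 3) in dFLEx CDS and 47.7 ± 15.4 CPM (SD, n = 2) in KP tumors. Ifi44 was at 1.42, 1.11 and 4.45 against 12.9 and 10.4 CPM and was also separated. The other 3 effectors overlapped between groups. Bst2 (tetherin, which holds budding viruses at the cell surface) was at 122, 109 and 57.1 against 94.7 and 621 CPM: tumor 3802 was far above the rest, and 3800 lay below 2 of the dFLEx CDS tumors. Ifi35 had the same layout, at 40.1, 27.1 and 9.51 against 23.3 and 106 CPM. Without 3802 the log2 fold changes of Bst2 and Ifi35 were 0.04 and 0.16, above 0, so their direction rests on that tumor. Parp14, an ADP-ribosyltransferase, was at 2.29, 6.99 and 13.4 against 41.3 and 10.6 CPM, with 3802 below 170025.

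OAS enzymes make oligoadenylate when they meet double-stranded RNA, a messenger that leads to the cutting of RNA; OASL1 lacks that activity. All 5 OAS family genes, which lie on chromosome 5, were lower in each dFLEx CDS tumor than in either KP tumor. The same held for 11.7% of all genes tested. Oasl1 (chr5:115061299-115075974), a translational brake on Irf7 mRNA, had the lowest log2 fold change of the list, at 0.97, 1.54 and 3.75 CPM in the dFLEx CDS tumors and 41.6 and 27.8 CPM in the KP tumors (-4.05 ± 0.76, edgeR adjusted p = 0.0971). Its lower KP tumor was 7.39 times its highest dFLEx CDS tumor, the widest such gap among the 38. Oas3 was at 0.522, 1.68 and 2.41 against 8.83 and 12.6 CPM and Oas1a at 6.24, 4.79 and 6.601 against 18.3 and 62.05 CPM; for Oas1a, 15.4% of 100-base stretches are shared with other genes, mainly the paralog Oas1g (2.02, 1.01 and 1.68 against 6.43 and 29.1 CPM). Oasl2 was at 2.11, 5.05 and 12.8 against 32.98 and 22.3 CPM. Oas2 came nearest to overlap, at 0.423, 2.46 and 4.13 against 7.15 and 4.39 CPM (log2 fold change -1.30 ± 0.92), since 170025 almost reached 3802.

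**Figure D2:**
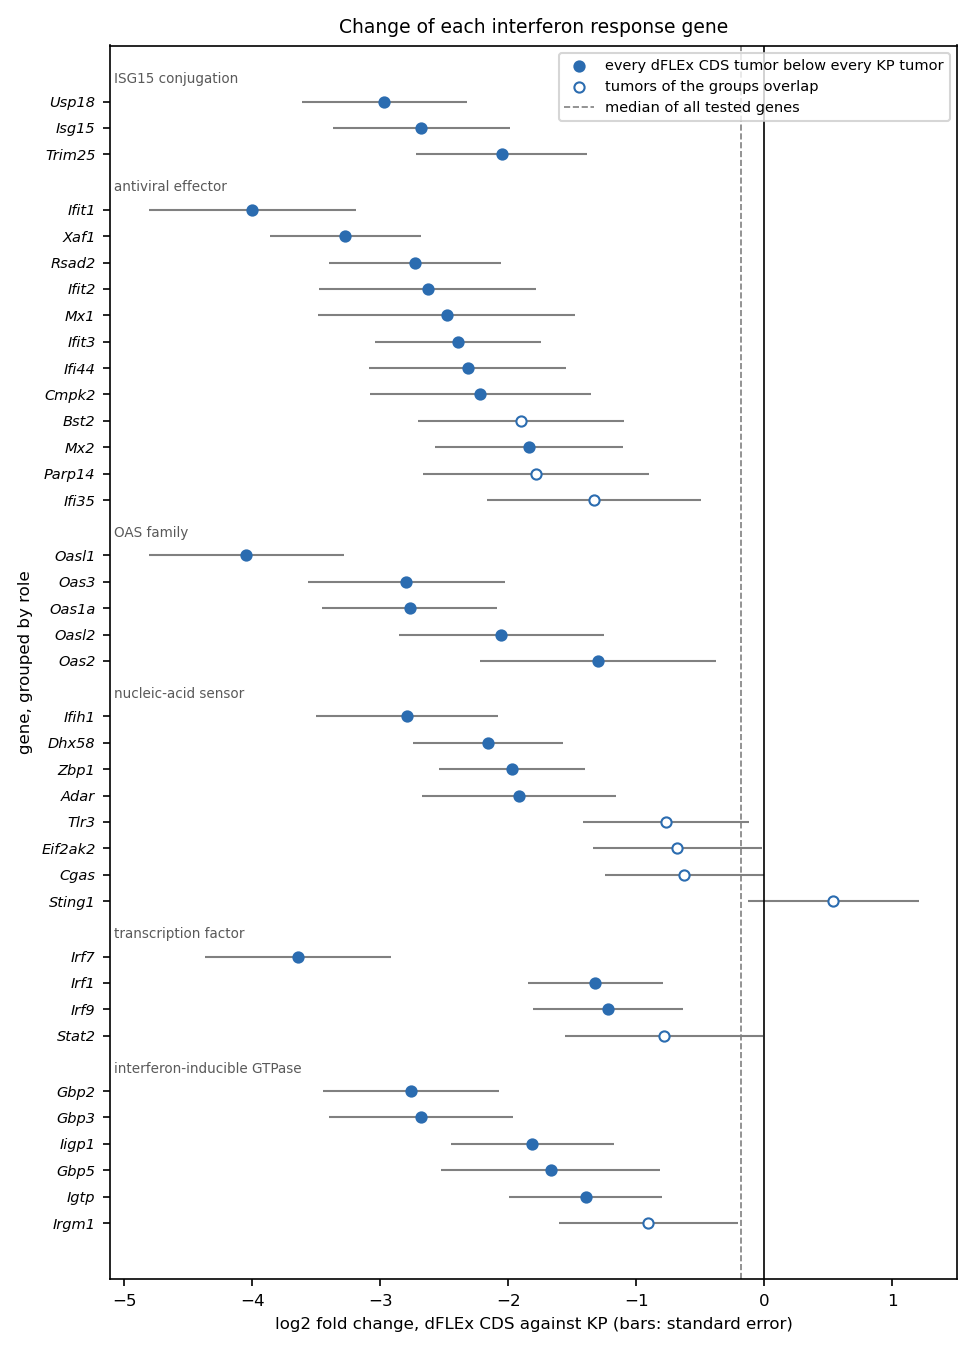
Log2 fold change of each gene, dFLEx CDS against KP, from edgeR on tumor sums, with bars for the standard error. Filled points are the 29 genes whose groups did not overlap, open points the 9 that did, and the dashed line is the median of all genes tested (-0.18). Sting1 is the only gene to the right of 0.

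Among the 8 nucleic-acid sensors the groups were separated for 4 and overlapped for 4. The 4 separated were lower in every dFLEx CDS tumor, against 11.7% of all genes tested. Ifih1 (chr2:62426142-62476599), which encodes the long double-stranded RNA sensor MDA5, was at 2.89, 4.32 and 7.07 CPM in the dFLEx CDS tumors and 48.4 and 17.6 CPM in the KP tumors (log2 fold change -2.79 ± 0.71, edgeR adjusted p = 0.189). Dhx58, encoding LGP2, a helper of MDA5, was at 3.13, 2.76 and 4.48 against 14.3 and 16.6 CPM. Zbp1, whose protein binds Z-form RNA and DNA and can start necroptosis, was at 4.65, 6.73 and 7.697 against 23.7 and 26.1 CPM. Dhx58 and Zbp1 differed little between the KP tumors, while Ifih1 was higher in 3800. Adar, the adenosine deaminase that edits double-stranded RNA and so keeps self RNA from being sensed, was at 3.28, 5.43 and 14.2 against 36.8 and 20.8 CPM (log2 fold change -1.91 ± 0.76, edgeR adjusted p = 0.417), though 16.8% of its exonic bases overlap Chrnb2 in the annotation and counting did not use strand.

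The 4 sensors with overlap were the DNA-sensing pair, Tlr3 and Eif2ak2. Cgas, encoding the enzyme that makes cyclic GMP-AMP on meeting cytosolic DNA, was at 14.3, 6.99 and 11.03 CPM in the dFLEx CDS tumors and 11.9 and 21.3 CPM in the KP tumors (log2 fold change -0.62 ± 0.62, edgeR adjusted p = 0.875), and 170019 lay between the KP tumors. Sting1, encoding the receptor of that messenger, alone in the list had a log2 fold change above 0 (0.54 ± 0.67, edgeR adjusted p = 0.899), at 49.5, 55.5 and 75.9 against 63.02 and 19.9 CPM. Only 3802 stood apart for Sting1, below the other 4 tumors, and without 3802 the log2 fold change was -0.05. Tlr3, encoding the endosomal double-stranded RNA receptor, was at 3.33, 3.81 and 7.84 against 9.58 and 7.44 CPM, and Eif2ak2, encoding the kinase PKR that halts translation, at 11.2, 19.7 and 34.6 against 42.8 and 27.1 CPM. For both, 170025 was above 1 of the KP tumors.

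The transcription factors ranged from -3.65 to -0.78 in log2 fold change. IRF7 is the interferon-induced factor that amplifies interferon alpha production. Irf7 (chr7:140842619-140846394) was at 9.75, 15.1 and 16.2 CPM in the dFLEx CDS tumors and 68.6 and 274 CPM in the KP tumors, which gave 13.7 ± 3.47 CPM (SD, n = 3) in dFLEx CDS and 172 ± 146 CPM (SD, n = 2) in KP tumors (log2 fold change -3.65 ± 0.73, edgeR adjusted p = 0.11). The lower KP tumor was 4.22 times the highest dFLEx CDS tumor. Irf1, a factor induced mainly by interferon gamma through its GAS element, was separated with the smallest standard error of the list, at 22.9, 27.2 and 23.8 against 67.8 and 55.2 CPM (log2 fold change -1.32 ± 0.53, edgeR adjusted p = 0.422); 20% of its exonic bases overlap Gm17334. Irf9 and Stat2 encode partners in the complex that binds the ISRE. Irf9 was at 19.03, 14.9 and 22.6 against 29.7 and 58.2 CPM and was separated. Stat2 was at 4.23, 8.39 and 21.4 against 24.5 and 14.5 CPM, and 170025 lay between the KP tumors. In all, 3 of the 4 factors were separated downward, against 11.7% of all genes tested.

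The 6 interferon-inducible GTPases attack membranes around intracellular microbes and are strongly induced by interferon gamma. Gbp2 was at 2.89, 5.62 and 7.07 CPM in the dFLEx CDS tumors and 49.7 and 20.6 CPM in the KP tumors (log2 fold change -2.76 ± 0.69, edgeR adjusted p = 0.18), and Gbp3, its neighbour on chromosome 3, at 1.97, 4.49 and 6.94 against 37.7 and 19.6 CPM. Gbp5, also in that cluster, was at 0.498, 2.03 and 3.11 against 7.82 and 4.14 CPM. All 3 were separated and all 3 were lowest in 170019, the lowest tumor for 18.6% of all genes tested. Of the smaller immunity-related GTPases, Igtp was at 3.91, 7.06 and 6.06 against 11.9 and 17.96 CPM and Iigp1 at 3.78, 8.11 and 10.6 against 27.6 and 25.03 CPM, both separated. Irgm1, which regulates the others, was at 4.204, 9.62 and 14.6 against 22.97 and 12.6 CPM, with 170025 above 3802. In all, 5 of the 6 GTPase genes were separated downward, against 11.7% of all genes tested.

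Outside the list, 105 further genes of the pathway were read, of which 92 passed the filter and none passed the edgeR threshold. At an unadjusted p under 0.05 in edgeR, 26 were lower and none was higher, against 4.93% lower among all genes tested. DESeq2 called 11 of the pathway genes, all lower, against 3.31% called lower among the genes it tested. None of the 11 interferon ligands passed the filter. Ifnb1 was at 0, 0.0694 and 0.0252 against 0.0806 and 0.569 CPM, which is 14 counts in 3802 and 6 in 3800, and Ifng at 0.0498, 0.225 and 0 against 0.0403 and 0.0813 CPM, at most 3 counts in a KP tumor; Ifna1, Ifna2 and Ifna4 had no count in any tumor, where 3 counts would be 0.0365 to 0.146 CPM. For Ifnb1 every dFLEx CDS tumor (0, 4 and 2 counts) was below both KP tumors, while Ifng was highest in 170024, at 13 counts. At counts this low, whether ligand RNA differed between groups was not tested.

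The receptors and their kinases were expressed in all tumors. Ifnar1 was at 29.1, 37.5 and 83.5 against 93.5 and 28.1 CPM (log2 fold change -0.28 ± 0.74) and Ifnar2 at 18.6, 28.2 and 36.00 against 36.5 and 32.5 CPM (-0.32 ± 0.57). The interferon gamma receptor genes were at 37.5, 44.5 and 62.5 against 63.9 and 50.3 CPM for Ifngr1 (-0.25 ± 0.55) and 164, 137 and 151 against 78.1 and 101 CPM for Ifngr2 (0.75 ± 0.53), the latter with every dFLEx CDS tumor above both KP tumors. Type I receptor levels thus overlapped between groups, and 1 subunit of the gamma receptor lay the other way from the induced genes. Jak1 was at 43.5, 67.4 and 159 against 173 and 59.6 CPM (-0.37 ± 0.75) and Tyk2 at 6.12, 11.8 and 20.7 against 35.3 and 14.1 CPM (-0.94 ± 0.73), both with overlap between groups. Without KP tumor 3800 the log2 fold changes of Ifnar1, Jak1, Tyk2 and Ifngr1 were above 0, so no direction is given for them.

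Of 20 further sensors and adaptors, 8 were lower in every dFLEx CDS tumor and none higher, against 11.7% and 13.7% of all genes tested. Rigi, the helicase that senses 5′ triphosphate RNA, was at 2.44, 5.15 and 13.4 against 35.1 and 16.3 CPM (log2 fold change -1.87 ± 0.81). Its adaptor Mavs was at 12.1, 25.7 and 32.1 against 33.7 and 13.8 CPM (-0.03 ± 0.69) and the factor Irf3, which Mavs and STING activate, at 68.01, 50.04 and 30.3 against 21.2 and 48.2 CPM (0.51 ± 0.66), both with overlap. Of 53 further interferon-stimulated genes tested, 45 had a log2 fold change below 0 (median -1.50) and 28 were separated downward (11.7% of all genes tested), among them Gbp8 (0.224, 0.104 and 0.239 against 2.69 and 2.11 CPM), Ddx60 (1.92, 1.56 and 4.598 against 18.2 and 13.3 CPM) and Rtp4 (10.4, 11.9 and 12.5 against 32.00 and 50.5 CPM). The other 8 had a log2 fold change above 0, where 56.3% of all genes tested were below 0. Among these 8 were Ifitm2 (484, 294 and 146 against 62.8 and 189 CPM), Ifi27 (257, 151 and 88.2 against 134 and 139 CPM), Slfn5 (20.1, 42.1 and 57.4 against 25.7 and 10.97 CPM) and Daxx (35.2, 47.8 and 65.1 against 31.8 and 22.3 CPM). Of these only Daxx had every dFLEx CDS tumor above both KP tumors. The examples in this paragraph were chosen after their values were seen, apart from Rigi, Mavs and Irf3.

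**Figure D3:**
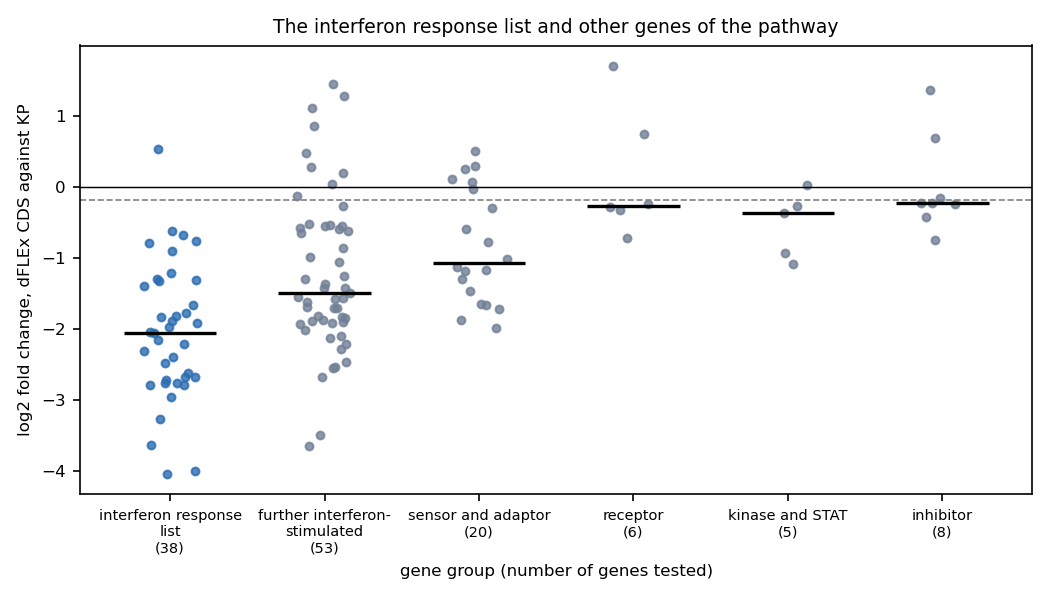
Log2 fold change, dFLEx CDS against KP, of each gene tested in the interferon response list (38) and in 5 groups of other pathway genes, with black bars for the group medians and a dashed line for the median of all genes tested. Medians were -2.05 for the list and -1.50 for further interferon-stimulated genes, against -0.26 for receptors and -0.37 for kinases and STATs.

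The tumors within a group were not alike. Of the 38 genes, 26 were lowest of all 5 tumors in 170019, against 18.6% of all genes tested. The highest tumor was 3800 for 22 genes (22.8% of all genes tested) and 3802 for 15 (31.6% of all). Among the dFLEx CDS tumors alone, 26 genes were highest in 170025, 7 in 170024 and 5 in 170019. The share over all genes was not computed for this order. Over all genes, the ratio of 170019 over 170025 went with gene length, as given below. The median coefficient of variation over the list was 45.0% between dFLEx CDS tumors and 42.4% between KP tumors, but 4.54% to 16.1% between libraries of a tumor, so tumors differed far more than duplicate libraries did.

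The order of the KP tumors went with gene length. The 15 genes higher in 3802 had a median exonic length of 2790 bases and the 23 higher in 3800 one of 5113 bases. Isg15, Bst2, Ifi35 and Oas1a (703 to 1885 bases) were higher in 3802, and Adar, Ifih1 and Parp14 (8118 to 9306 bases) in 3800. Spearman's rho between exonic length and the log2 ratio of 3802 over 3800 was -0.46 over the 38 genes, and -0.36 over all 15264 tested genes that averaged 1 CPM or more; genes of a library are not independent points. Lengths also went with the ratio of dFLEx CDS tumor 170019 over 170025 (rho -0.56 over the list and -0.54 over all). The trend was thus seen over all genes and not in these alone.

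After each tumor's trend with length and GC content was removed, an alternative added after seeing the data, 36 of the 38 genes were separated downward (16.8% of all genes) and 2 were called lower by edgeR, Xaf1 (adjusted p = 0.0373, where all 16 alternatives gave 1.76e-06 to 0.332) and Oasl1 (adjusted p = 0.0472, against 2.28e-06 to 0.331), with 0.359% of all genes called lower. The 2 that still overlapped were Cgas and Sting1, with adjusted levels of 42.9, 47.4 and 70.3 against 75.4 and 24.8 CPM for Sting1. The median log2 fold change was then -2.34. Without KP tumor 3802 the median was -2.12, with 36 genes below 0 (42.3% of all genes) and 34 separated from the remaining KP tumor (29.1% of all genes). Without 3800 it was -1.64, with 37 below 0 (51.2% of all) and 30 separated (41.9% of all), so separation from 1 KP tumor is common. The log2 fold changes were thus mostly below 0 with either KP tumor left out, but their size was not stable. For 29 of the 38 genes the fold change with 3800 left out and that with 3802 left out were more than 1.5 times apart. In that order the log2 fold changes were -4.60 and -2.29 for Ifit1, -4.16 and -2.31 for Irf7, -3.14 and -1.55 for Isg15, and -3.24 and -1.62 for Oas1a. The reverse held for Parp14 (-0.32 and -2.43), Cmpk2 (-0.86 and -2.84), Ifit2 (-1.32 and -3.24) and Trim25 (-1.04 and -2.56).

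**Figure D4:**
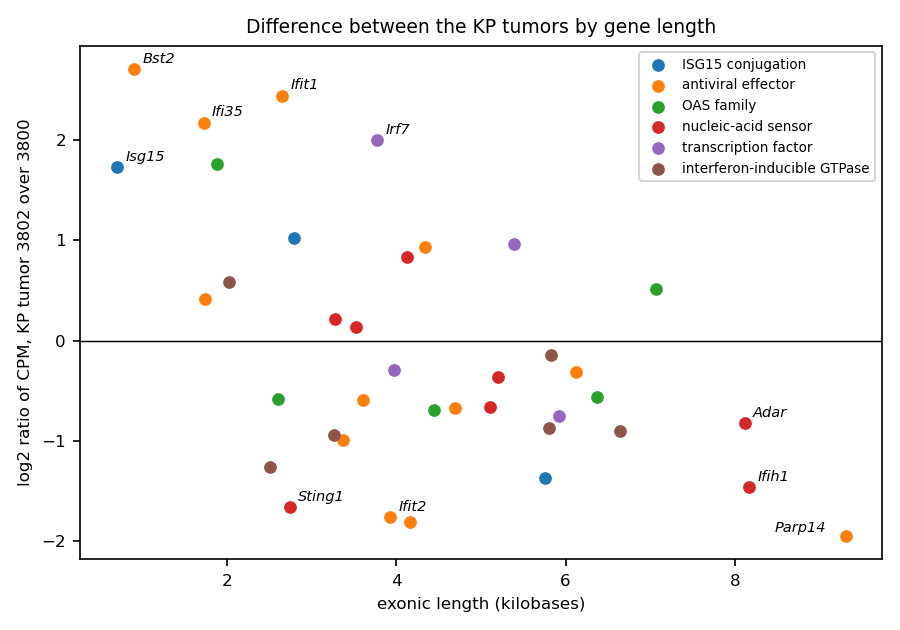
Log2 ratio of the level in KP tumor 3802 over that in KP tumor 3800 against exonic length in kilobases, 1 point per gene, colored by role. Short genes such as Bst2, Isg15 and Ifi35 lie above 0 and long genes such as Parp14, Ifih1 and Adar below 0.

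Immune cell markers also differed between the groups. The summed level of 8 macrophage markers was 1062 to 1266 CPM in the dFLEx CDS tumors and 2636 and 5308 CPM in the KP tumors. Of the 8, 6 were separated downward and none upward, against 11.7% and 13.7% of all genes tested. In 3802, C1qa alone was at 3099 CPM, whereas Cd68 overlapped between groups, at 44.2, 49.4 and 54.9 against 50.2 and 33.6 CPM. The 10 T and NK cell markers summed to 8.15 to 13.005 CPM in the dFLEx CDS tumors, 17.96 CPM in 3800 and 79.3 CPM in 3802. Of the 10, 5 were separated downward, against 11.7% of all genes tested. Both sums were thus higher in the KP tumors, as were most of the interferon response genes. The other 5 T and NK markers overlapped between groups, such as Cd3e at 1.72, 1.61 and 0.567 against 1.17 and 9.43 CPM. Marker sums were not adjusted for the trend with gene length. The 4 B cell markers did not go with the groups: they summed to 2.22 CPM in 3800, below the 3.24 to 5.93 CPM of the dFLEx CDS tumors, and to 34.7 CPM in 3802.

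Plasmacytoid dendritic cells, a main source of type I interferon, were looked for with 5 markers, but their sum (65.8 to 313 CPM in dFLEx CDS, 10.3 and 63.3 CPM in KP) was mostly Cox6a2, which muscle also uses (47.3 CPM in 3802); Siglech was at 0.672, 0.954 and 0.328 against 0.605 and 3.25 CPM. The 5 neutrophil markers summed to 6.49 to 49.5 CPM in the dFLEx CDS tumors and 6.97 and 38.03 CPM in the KP tumors, with Ly6g at 0 in 170025. The endothelial sum went the other way from the interferon response genes: 6 markers summed to 196 to 510.0 CPM in the dFLEx CDS tumors and to 131 and 79.9 CPM in the KP tumors. Of the 6, 2 were separated upward, against 13.7% of all genes tested, and 4 overlapped between groups. The study also found Pecam1, Erg and Cdh5, which are in this sum, enriched in a subcluster of dFLEx CDS tumor cells. Which cells gave the endothelial sum was not tested. The part of these cell types in the levels of the interferon response genes was not tested.

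**Figure D5:**
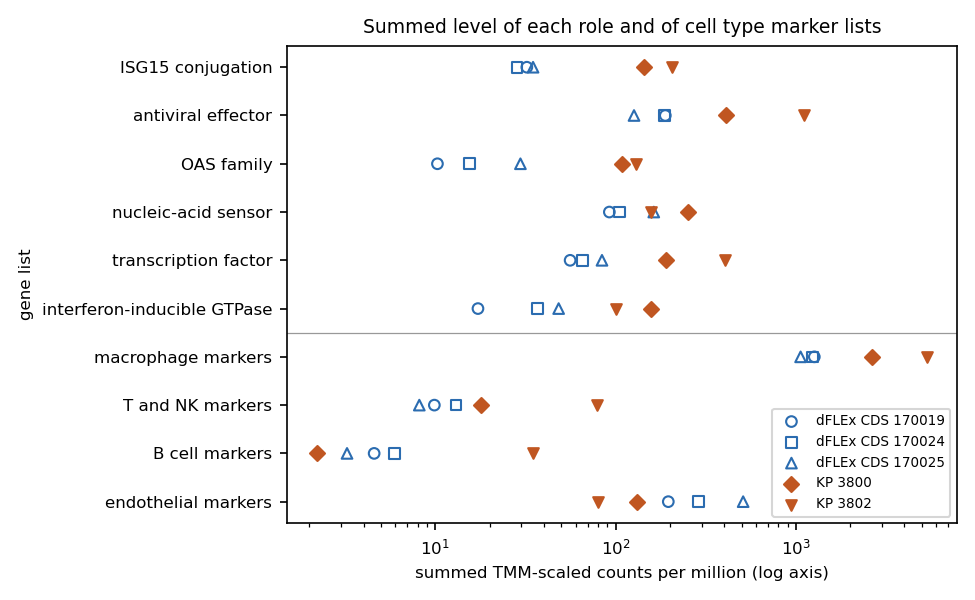
Summed level of the genes of each role (above the line) and of cell type marker lists (below it) in each tumor, in TMM-scaled CPM on a log axis. Macrophage and T and NK sums lie higher in both KP tumors, endothelial sums lie higher in the dFLEx CDS tumors, and B cell sums are lowest in KP tumor 3800.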

How the data were processed

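Per the labels and the study's methods, the authors trimmed 150-base paired reads of rRNA-depleted libraries with Trimmomatic 0.39, aligned them with STAR 2.7.10a to the mouse genome (GRCm39 in the table's coordinates) and counted them with featureCounts (Subread 2.0.3). The deposited values are raw counts per gene; mates were counted each for itself, without strand, and reads on several places or genes were not counted, which lowers close paralogs and overlapping genes.

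For each tumor the counts of its libraries were added up, filtered with filterByExpr (24743 genes kept), scaled by TMM (factors 0.848 to 1.21) and tested in R 4.3.3 with edgeR 4.0.16 (quasi-likelihood, Benjamini-Hochberg over all genes tested, threshold 0.05). The test was first tried on simulated data. DESeq2 1.42.0, other scalings and filters, libraries in place of tumors, subtraction of the receptor background and each tumor left out were alternatives. Replicate numbers of libraries were not used to pair samples, since the deviations of same-numbered libraries correlated at -0.03 to 0.11. Counting depth limits low genes most, such as Mx1 with 6 counts in 170019. Intervals for counting error were not computed.

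The genes and the lists of pathway genes and markers were chosen with earlier results of these data known. Values in every tumor were to be given for genes with an unadjusted p under 0.05, without overlap between groups, or at either end of their role, and for Isg15, Irf7, Irf1, Cgas, Sting1, Ifih1, Adar and 12 pathway genes; the 3 others are given too. An allele of the KP genotype and 1 of the 12 pathway genes are not reported here.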

Additional observations from a re-analysis of the deposited data

How the results depend on the processing

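The direction of the list held under all 16 alternatives: 36 or 37 of the 38 genes had a log2 fold change below 0 and the median lay between -2.34 and -1.96, or between -2.49 and -1.64 with a tumor left out, while the median of all genes moved between -0.47 and 0.34. The number of genes separated downward was 27 to 36, where 7.72% to 41.9% of all genes were. Calls were what moved. Libraries as separate samples gave 29 calls in the list and 31 in the pathway genes (30 of them lower) with 17.1% of all genes called, and adding the library number as a replicate block gave 25 and 25 (24 lower) with 12.7% called, although these numbers do not pair samples and both fits count libraries of 1 RNA as replicates. DESeq2 gave 18 and 11 with 1516 genes called in all, no filter 7 and 1 (1.98%), upper-quartile scaling 1 (0.202%), a minimum mean of 1 CPM 1 (Xaf1, 0.521%), and removal of the length and GC trend, added after seeing the data, 2 (0.729%). With a dFLEx CDS tumor left out the list had 0 calls. Leaving out a KP tumor leaves 1 in that group, whose spread cannot be seen, so no calls are given for those fits. DESeq2 size factors, library totals, the first library of each tumor and background subtraction gave 0 in the list. Of 608 values of single genes of the list under alternatives, 3 reversed, all without 3802: over the fits that leave out a tumor, the value ran from -2.54 to 0.039 for Bst2, from -1.90 to 0.16 for Ifi35 and from -0.047 to 1.77 for Sting1. Of the pathway genes named, it ran from -0.89 to 1.01 for Ifnar1, from -0.49 to 0.10 for Ifngr1, from -1.07 to 0.77 for Jak1, from -1.46 to 0.043 for Tyk2 and from -0.52 to 0.93 for Mavs; Mavs was at 0.046 with no filter, and Irf3 at -0.0065 with the length and GC trend removed. The cause was not tested. Tumor 3802 rests on 1 library of 20503474 counts, where 3 counts are 0.146 CPM.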
